A study of Mus musculus with 3 samples.

Results

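CpG-poor promoters open in every library are start sites of protein-coding genes that lie in sequence with few CG dinucleotides and yet carried a DNase I peak in each of 3 libraries of mouse embryonic liver. A window of 1000 bp on either side of each annotated transcription start site (TSS) was taken as a member when it held at most 25 CG dinucleotides in its 2001 bp, had no TSS of another gene within 2000 bp, and was overlapped by a peak in all 3 libraries. Of 10384 isolated CpG-poor windows 189 met the rule, or 1.82%, and 9178 had no peak in any library. The 189 windows belong to 134 genes, 1.96% of the 6842 genes with such a window, and where genes are counted the most upstream qualifying window stands for its gene. Neighbouring windows of a gene share peaks, so that the strongest peaks of the 189 windows were 137 distinct peaks in each library. The members were selected on the presence of peaks in these same libraries, so peak signal and the share of open windows are given as a description with no test.

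DNase-seq reads out where the enzyme DNase I cuts chromatin, which happens mostly where nucleosomes are displaced. The tissue was liver of 13.5-day embryos of the strain C57BL/6N,129, wild type with the A20 YAC in a single copy, a yeast artificial chromosome that every library shares. The labels number the 3 libraries as biological replicates 1, 2 and 3, with a biosample each but the same donor entry. They give no other group or tissue for comparison. At this age the liver is the main site of red cell formation and holds erythroid precursors beside hepatoblasts, macrophages, endothelium and other cells, so that in whole tissue fewer cells of a type and a weaker signal per cell cannot be told apart.

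Most promoters of broadly used genes lie in CpG islands, stretches rich in unmethylated CG that tend to be open in nearly all cells. Promoters outside islands are more often those of tissue-restricted genes, and their opening generally relies on transcription factors present in that cell type. In red cell precursors these include GATA1, the TAL1 and LMO2 complex that contacts GATA1 on DNA, KLF1, which binds CACCC boxes, and NFE2.

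The upstream sequences of 6 members are shown because each holds a searched motif inside a footprint that all 3 libraries listed between the TSS and 200 bp upstream. A footprint is a short stretch protected from cutting within an open region. The 6 were the genes of best signal rank, among those named by the rule given with the methods, that met this condition. Each line runs 5′ to 3′ on the coding strand over the 200 bases before the TSS, from the RefSeq copy of the mouse assembly mm10, and overlaps no annotated exon. Capitals mark the motif that lies in the footprint.
6030468B19Rik chr11:117797460-117797659 (+ strand): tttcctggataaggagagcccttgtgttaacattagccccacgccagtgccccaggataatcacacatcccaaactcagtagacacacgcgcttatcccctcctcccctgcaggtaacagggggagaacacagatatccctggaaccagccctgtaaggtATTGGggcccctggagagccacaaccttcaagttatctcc
Ermap chr4:119190012-119190211 (- strand): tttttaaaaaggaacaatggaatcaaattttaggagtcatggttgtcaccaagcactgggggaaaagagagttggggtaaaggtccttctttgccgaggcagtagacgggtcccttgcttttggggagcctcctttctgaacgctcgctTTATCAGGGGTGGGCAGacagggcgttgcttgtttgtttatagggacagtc
Trim21 chr7:102565487-102565686 (- strand): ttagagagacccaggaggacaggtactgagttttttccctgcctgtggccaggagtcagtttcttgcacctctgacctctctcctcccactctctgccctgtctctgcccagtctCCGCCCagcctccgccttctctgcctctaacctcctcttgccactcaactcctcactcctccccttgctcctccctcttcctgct
Zfp950 chr19:61140818-61141017 (- strand): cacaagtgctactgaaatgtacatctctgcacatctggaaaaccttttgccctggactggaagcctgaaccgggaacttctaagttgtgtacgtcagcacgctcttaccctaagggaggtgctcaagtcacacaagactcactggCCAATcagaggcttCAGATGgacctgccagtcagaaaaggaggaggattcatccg
Tspan32 chr7:143004846-143005045 (+ strand): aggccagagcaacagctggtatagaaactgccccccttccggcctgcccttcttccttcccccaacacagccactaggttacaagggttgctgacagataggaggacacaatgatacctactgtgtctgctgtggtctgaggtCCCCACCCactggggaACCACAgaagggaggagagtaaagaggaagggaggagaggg
Hemgn chr4:46404237-46404436 (- strand): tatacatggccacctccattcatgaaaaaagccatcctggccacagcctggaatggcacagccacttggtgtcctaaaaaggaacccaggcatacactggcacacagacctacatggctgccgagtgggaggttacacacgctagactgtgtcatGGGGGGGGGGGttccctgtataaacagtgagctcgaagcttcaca

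In 6030468B19Rik the capitals mark a CCAAT box, and in Ermap an E-box element followed after a fixed gap by a GATA motif, read on the opposite strand. Trim21 has an SP1 motif, Zfp950 a CCAAT box and an E-box, and Tspan32 a KLF and a RUNX motif. Hemgn has a run of G that matches the letters searched for KLF, CCNCNCCC, without holding CACCC. Of the 134 genes, 78 (58.2%) had at least 1 footprint shared by all 3 libraries, 114 sites in all once overlapping footprints were joined, and 50 of the 114 held none of the 19 motifs searched. KLF motifs lay in 16 of them, GATA motifs in 12, E-boxes in 11, CCAAT boxes in 11 and SP1 motifs in 11.

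CG content set the members apart in a graded way rather than at the limit. A peak in all 3 libraries was found at 0.0957% of isolated windows with 0 to 5 CG (1 of 1045), at 1.33% with 11 to 15 CG, at 4.93% with 21 to 25 CG, at 20.8% with 31 to 40 CG and at 78.0% with 101 to 323 CG. Of all isolated windows above the limit, 61.1% had a peak in all 3 libraries (12863 of 21061), with 64.7% in replicate 1, 81.9% in replicate 2 and 67.1% in replicate 3. Over isolated windows of any CG content the share was 41.5%. Just inside the limit, 16 of 392 windows with 24 CG and 24 of 408 with 25 CG were members. Just outside it, 22 of 368 windows with 26 CG and 24 of 303 with 27 CG had a peak in all 3 libraries. The limit therefore falls on a slope, with 5.88% of windows at 25 CG and 5.98% at 26 CG.

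**Figure D1:**
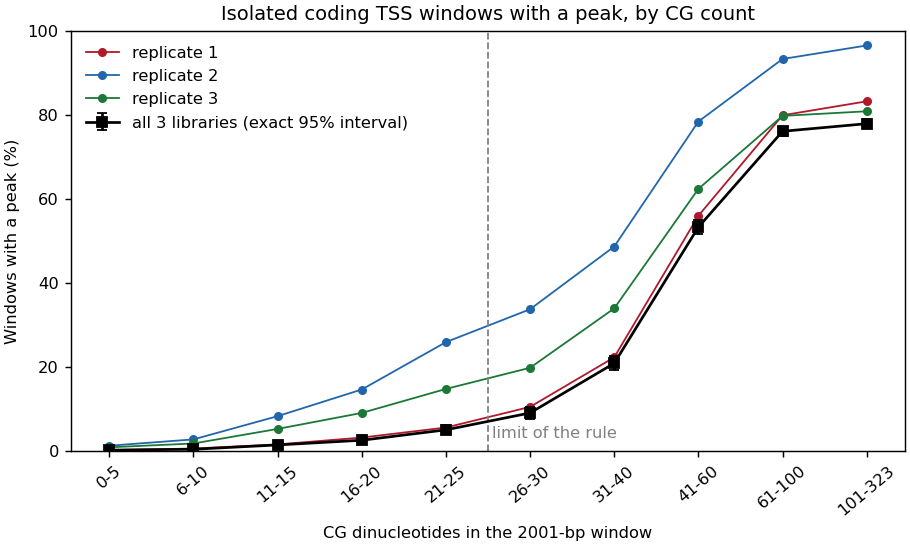
Percentage of isolated coding TSS windows with a peak, by the number of CG dinucleotides in the 2001-bp window, in each library (colours) and in all 3 libraries (black squares, with exact 95% binomial intervals that cover counting error over windows only). The share in all 3 libraries climbs from 0.0957% in the lowest class to 78.0% in the highest, and replicate 2 lies above the other 2 libraries in every class.

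The libraries differed in how many peaks they listed, and that number bears on membership. Replicate 1 listed 34369 peaks, replicate 2 122281 and replicate 3 60862. A peak overlapped 2.13% of isolated CpG-poor windows in replicate 1, 10.5% in replicate 2 and 6.29% in replicate 3. Of the windows with a peak in exactly 2 libraries, 354 had it in replicates 2 and 3, 26 in replicates 1 and 2 and 3 in replicates 1 and 3. Membership thus turned mainly on the library with the fewest peaks. Without replicate 1, 543 windows of 390 genes had a peak in both other libraries, 5.23% of the isolated CpG-poor windows.

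Most genes of the erythroid list with an isolated CpG-poor window had a peak there in every library, which did not hold for the stricter peak list. Of 13 genes of a list of erythroid genes that have an isolated CpG-poor window, 10 were members, against 1.96% of all genes with such a window. Among them were Nfe2, Epb42, Kel, Ermap, Car1, Tmcc2, Add2, Hemgn and Tspo2. In replicate 1 Nfe2 counts through the edge of a peak alone. The list was chosen with earlier results of these data known, so that the count is given as a description. At its CpG-poor window Rhag, a blood group associated membrane protein, had peaks in replicates 2 and 3 only. The CpG-poor window of Epb41 had a peak in replicate 2 only, and that of Gypc in none. With the authors' stricter peak list, 6 of the 13 genes had a peak in all 3 libraries, against 0.877% of all genes with a CpG-poor window.

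Nfe2 encodes the large subunit of the factor NF-E2, which activates globin and platelet genes. Its window had a highest peak signal of 2.27 in replicate 1, 7.75 in replicate 2 and 9.85 in replicate 3, the best rank of any member when genes are ordered by their poorest library. Signal is the value the authors gave each peak, on a scale set per library, so that levels are compared between windows of 1 library and not between libraries. The place of that peak differed. In replicate 1 the strongest peak was centred 1064.5 bp downstream of the TSS and only its edge reached the window, while in replicates 2 and 3 the centre was at -345.5 and -325.5 bp, upstream of it. The bases that the peaks of all 3 libraries shared came to 16 bp, and the membership of Nfe2 in replicate 1 rests on that edge.

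Genes of the membrane skeleton and the red cell surface followed. Add2, a beta adducin of the skeleton, had 11 CG and signals of 1.01, 5.30 and 6.49. Epb42, protein 4.2, which ties the skeleton to the membrane, had signals of 1.28, 7.45 and 7.18. Kel, a blood group endopeptidase with 8 CG, had 0.940, 4.84 and 8.57, and Ermap, an erythroid membrane protein of the immunoglobulin superfamily, had 1.90, 6.87 and 7.60. All 4 stood lower in the order of windows in replicate 1 than in replicates 2 and 3.

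Among the other erythroid members, Tmcc2, a transmembrane coiled-coil protein, had signals of 1.70, 7.44 and 14.6, the last being the highest of any member in replicate 3. Hemgn, a nuclear factor of blood cell progenitors, had 1.27, 3.74 and 5.79, and Tspo2, a cholesterol-binding protein of erythroblasts, had 1.30, 4.90 and 5.75. Car1, the red cell carbonic anhydrase, had the weakest peaks of the erythroid members, at 0.414, 0.340 and 0.471, in a window with 8 CG. Among all coding TSS windows, those without a peak included, Car1 is the 1 erythroid member that ranked no higher in replicate 2 than in replicate 1. Fewer windows had a peak in replicate 1, so that even weak peaks ranked above many windows there. The 2 ranks are therefore not directly comparable.

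At several haem, iron and globin genes the CpG-poor window was not open in all libraries. The CpG-poor windows of Fech and Steap3, which insert iron into haem and reduce iron for uptake, had peaks in replicates 2 and 3 only. Those of Fth1 and Blvrb had none. At any window, whatever its CG count, 26 of 28 haem and iron genes had a peak in all 3 libraries. Of 5 globin genes with an isolated CpG-poor window 1 was a member. That was the adult gene Hbb-bt, with signals of 0.605, 2.74 and 4.03, and 42.7% of the 36-base words of its window occur elsewhere in the genome. At their CpG-poor windows, Hbb-y and Hba-x, used by embryonic red cells, carried a peak in replicate 2 only, and Hbb-bh1 and Hbb-bh2 had none.

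The 12 members on the erythroid, globin and haem lists ranked unequally over the libraries. A window's percentile is its rank among all 41438 coding TSS windows of that library, with windows without a peak at 0. The median percentile of these 12 genes was 57.7 in replicate 1, 67.0 in replicate 2 and 80.6 in replicate 3, and all 12 stood higher in replicate 3 than in replicate 1. The other 122 members had medians of 53.9, 55.1 and 58.0, and 76 of them stood higher in replicate 3 than in replicate 1. The libraries therefore differ in the rank of red cell promoters among all coding TSS windows. That rank also depends on how many windows have a peak, the lowest percentile of a member window being 47.7, 35.8 and 45.1 in replicates 1, 2 and 3. The part of the number of peaks was not tested. The 3 genes with the widest spread between libraries were Tmcc2, Kel and Lmo2, at 76.4 ± 16.1, 68.3 ± 15.3 and 73.6 ± 14.4 (mean ± SD, n = 3).

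**Figure D2:**
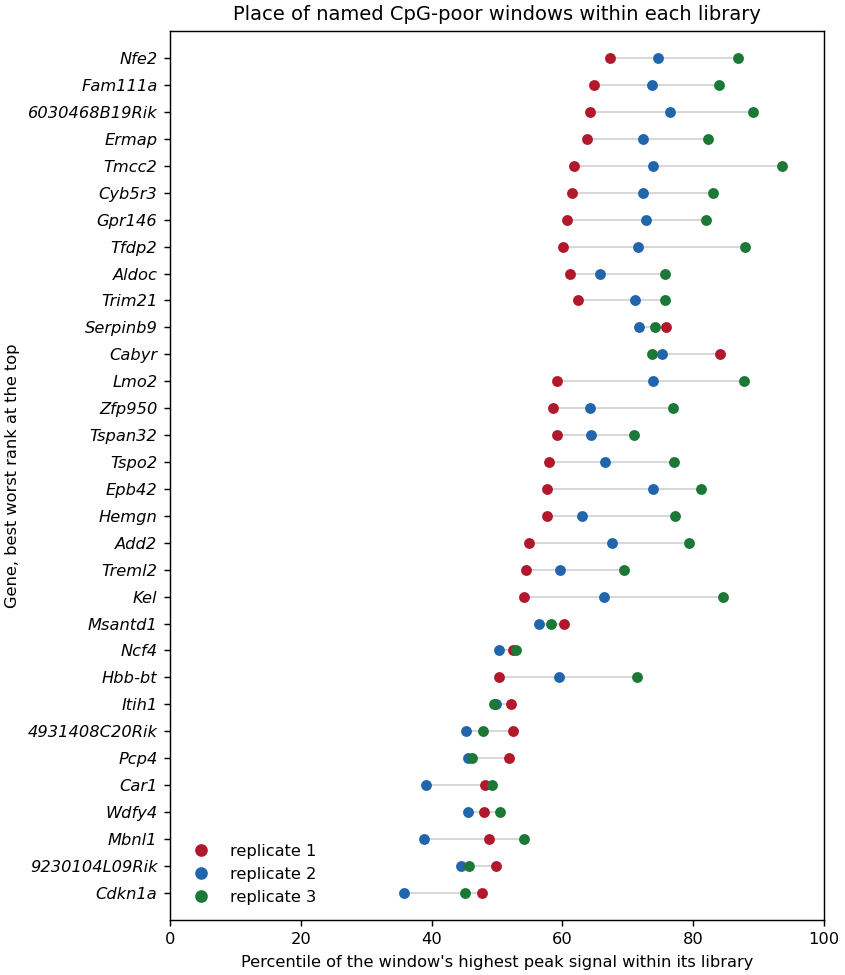
Percentile of the highest peak signal in the window of each of 32 named member genes among all coding TSS windows of that library, with 1 point per library and genes ordered by their poorest rank over the libraries. Kel lies at 54.1, 66.3 and 84.5 in replicates 1, 2 and 3 and Hbb-bt at 50.3, 59.5 and 71.4, while Car1 lies at 48.2, 39.2 and 49.2 near the bottom.

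Of 22 hepatoblast genes with a CpG-poor window 1 was a member, where the share over all genes was 1.96%, so that this count is near the background. That gene is Itih1, an inter-alpha-trypsin inhibitor chain made by liver, with signals of 0.761, 0.889 and 0.492. A further 12 hepatoblast genes had a peak at their CpG-poor window in 1 or 2 libraries, none of them in replicate 1. Apoa1 had 0.983 in replicate 2 and 0.928 in replicate 3, and Apoa2 had 0.517 and 1.09. The CpG-poor window of Alb had no peak in any library. Without replicate 1, 9 of the 22 hepatoblast genes and 3 of 9 megakaryocyte genes (Gp1ba, Treml1 and Tubb1) had a peak in both other libraries, against 5.7% of all genes with such a window. In the same setting it was 3 of 32 myeloid and macrophage genes and 1 of 13 lymphoid genes. The hepatoblast and megakaryocyte counts thus depend on replicate 1, whereas the erythroid count went from 10 to 11 of 13.

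The lists for other cell types hold few genes with such a window, and nothing is read from their counts of 0 or 1 beside the background of 1.96%. Of 32 myeloid and macrophage genes with a CpG-poor window 1 was a member, Ncf4, a cytosolic subunit of the phagocyte oxidase, with signals of 0.784, 0.931 and 0.706. Of 4 stem and progenitor genes 1 was a member, Lmo2, the adaptor of the TAL1 complex, with 1.43, 7.42 and 10.4. No member came from the 13 lymphoid, 15 mature hepatocyte, 6 endothelial, 4 mesenchymal, 3 neural or 5 muscle genes with a CpG-poor window. At any of their windows, whatever its CG count, 51.4% of the 21827 coding gene symbols had a peak in all 3 libraries. Measured that way it was 44 of 49 erythroid genes, 26 of 28 haem and iron genes, 15 of 15 housekeeping genes, 12 of 24 stem and progenitor genes, 7 of 20 mesenchymal genes, 9 of 49 hepatoblast genes, 5 of 15 neural genes and 1 of 15 muscle genes. It was 4 of 10 globin genes, 7 of 25 megakaryocyte genes, 4 of 51 myeloid and macrophage genes, 1 of 26 lymphoid genes, 3 of 26 mature hepatocyte genes and 2 of 19 endothelial genes.

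**Figure D3:**
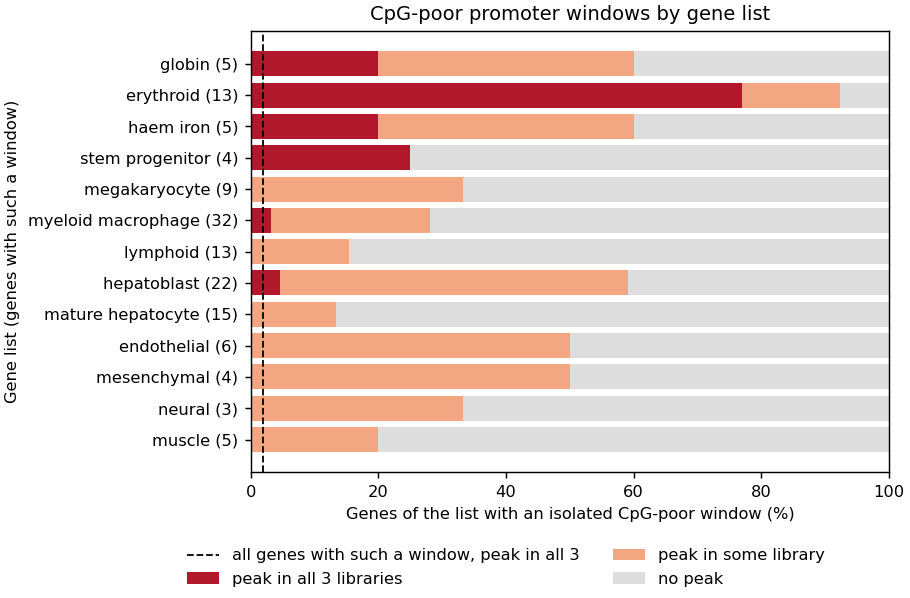
Genes with an isolated CpG-poor window in 13 gene lists, as the percentage with a peak in all 3 libraries (red), in 1 or 2 libraries (orange) and in none (grey), with the number of such genes in brackets and a dashed line at 1.96%, the share of all such genes with a peak in all 3. The erythroid bar is red for 10 of 13 genes, and the hepatoblast bar is mostly orange and grey. The lists were chosen with earlier results of these data known.

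Large families of genes expressed in sense organs and epithelia supplied windows but no members. None of 1102 olfactory receptor genes, 327 vomeronasal receptor genes, 54 defensin genes and 46 keratin-associated protein genes with an isolated CpG-poor window was a member. The share over all genes with such a window was 1.96%. For the defensin and keratin-associated genes the absence of members is near that background, and nothing is read from it. Of 64 cytochrome P450 genes 1 was a member, or 1.56%, also near the background. That gene is Cyp1a1, an inducible oxidase of foreign compounds, with signals of 0.851, 1.09 and 0.720. Without these families, the predicted Gm genes, the RIKEN genes and the zinc finger genes, 121 of the other 3985 genes were members, or 3.04%. Sequence copied elsewhere in the genome, to which short reads cannot be assigned, was also less frequent among members. Over 50% of the 36-base words occurred elsewhere in the windows of 2 of 134 members (1.49%) and of 1000 of 5948 genes without a peak (16.8%). Only 1 member gene, Zc4h2, lies on chromosome X, or 0.746% of the members against 5.92% of the genes without a peak.

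Most members, 119 of 134, were on none of the gene lists. Among the most strongly open were Fam111a, a protease that acts at replication forks, with signals of 2.02, 7.40 and 8.33, and Cyb5r3, which reduces methaemoglobin in red cells, with 1.68, 6.89 and 7.88. Tfdp2, a partner of E2F factors in the cell cycle, had 1.53, 6.63 and 10.4, and Gpr146, an orphan receptor, had 1.60, 7.09 and 7.46. Aldoc, a glycolytic aldolase, had 1.63, 4.67 and 5.23. Serpinb9, the granzyme B inhibitor, had 3.26, 6.69 and 4.80, and Cabyr had 4.34, 8.02 and 4.67. Both were among the genes that stood high in replicate 1 as well. The only peak of the Cabyr window was centred 958.5 to 978.5 bp downstream of the TSS, at the window's edge.

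A group put together after the values were seen, so that its count has no weight, holds 18 members known from signalling and adhesion in white cells and platelets. They include Rac2, a small GTPase of blood cells, with signals of 1.80, 4.74 and 3.80, Fermt3, the integrin activator kindlin-3, with 1.66, 3.01 and 2.34, and Nckap1l, a subunit of the blood cell WAVE complex, with 0.873, 1.08 and 0.831. Ackr1, the Duffy blood group chemokine receptor, had 0.649, 3.58 and 4.78. A second group made in the same way holds 14 genes of interferon response and defence, such as Trim21, an antibody receptor in the cytosol, with 1.77, 6.46 and 5.21, Gbp3, a guanylate-binding protein, with 1.99, 2.49 and 1.05, and Aim2, a sensor of DNA, with 1.37, 2.38 and 1.92. Aim2 and Gbp3 had mean percentiles of 59.5 ± 1.99 and 59.8 ± 4.35, and Trim21 had 69.7 ± 6.72 (SD, n = 3). At Rac2, Gbp3 and Aim2 the strongest peak was centred over 500 bp from the TSS in all 3 libraries.

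The weakest members stood near the bottom of the windows with a peak. Cdkn1a, the cell cycle inhibitor p21, had signals of 0.258, 0.219 and 0.215 at its CpG-poor upstream start. Its CG-richer start 2790 bp downstream, with 106 CG, had signals of 2.00, 3.70 and 2.57. Wdfy4, Mbnl1, 9230104L09Rik and Pcp4 were among the next weakest, with no signal above 0.817. The member with the fewest CG was 4931408C20Rik, with 2 CG and signals of 0.784, 0.559 and 0.402.

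Open CpG-poor windows were weaker and narrower than open windows with more CG. The median highest signal in the 189 windows was 0.940, 1.90 and 1.40 in replicates 1, 2 and 3, and in the 12863 isolated windows with more CG and a peak in all 3 libraries it was 2.86, 6.87 and 4.25. The median percentile of members was 54.1, 56.4 and 58.8, or 56.4 ± 2.35 (mean ± SD, n = 3), against 72.2 to 72.4 in the 3 libraries for windows with more CG. The highest member percentile in any library was 93.6, for Tmcc2 in replicate 3. Each member gene had a median of 194, 623 and 386.5 bp that passed the 0.05 limit of the authors' false discovery rate list, against 670, 1200 and 763 bp in CG-richer open windows. In all 3 libraries the members were the lower of the pair.

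The open DNA centred on the TSS but covered it less often than at CG-richer promoters. The most frequently open 50-bp bin of the member genes was the one just upstream of the TSS in every library, where 48.4%, 72.5% and 63.7% of positions passed the false discovery rate, or 61.5% ± 12.2 (SD, n = 3). In CG-richer open windows the highest bin reached 90.5% ± 5.10. A peak covered the TSS itself in 53.2% ± 7.91 of member genes and in 76.0% ± 2.74 of the CG-richer genes. The strongest peak of the window lay over 500 bp from the TSS in 29.4% ± 0.862 of member genes and in 8.40% ± 0.380 of the CG-richer genes. The differences between both classes exceeded the SD over libraries in each of these measures.

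**Figure D4:**
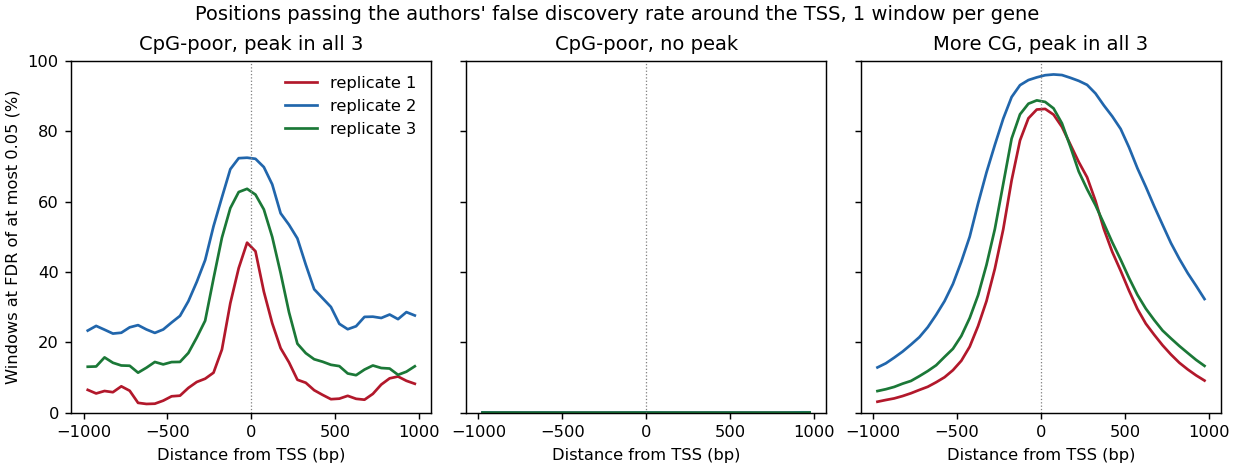
Percentage of windows, 1 per gene, whose positions pass the 0.05 limit on the authors' false discovery rate, in 50-bp bins by distance from the TSS (downstream positive), with 1 line per library. Members reach 48.4% to 72.5% just upstream of the TSS, CG-richer open windows reach 86.4% to 96.2%, and CpG-poor windows without a peak stay near 0.

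The members thus held both start-site openings and openings beside the start. The strongest peak was centred within 250 bp of the TSS in all 3 libraries at 77 genes, among them Ermap, Kel, Add2, Hemgn and Car1. It was centred over 500 bp away in all 3 libraries at 36 genes, among them Tspo2, Lmo2, Mafg, Rac2 and Itih1. At Tspo2 the centre was at -845.5 to -797.5 bp and at Lmo2 at -964.5 to -874.5 bp, all upstream. Of the genes with their strongest peak over 500 bp away, 40 in replicate 1, another start of the same gene lay within 250 bp of that peak at 6.

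The same bases were open in every library at nearly all members. Peaks of all 3 libraries shared at least 1 base at 128 of 134 genes, over a median of 160 bp, and those shared bases covered the TSS at 51. In the other 6 genes the libraries had different peaks within the window: Grap2, Wfikkn1, 9230104L09Rik, Gm14403, Mbnl1 and Clta. The shared bases covered the TSS at 8 of the 12 red cell members and at 43 of the other 122. A footprint was listed in the windows of 83.6%, 100% and 94.0% of member genes in replicates 1, 2 and 3, against 97.1%, 99.9% and 97.2% of CG-richer open genes. Gpr146 and Treml2, a receptor of the immunoglobulin superfamily, had the most footprints over the 3 libraries, 40 each, followed by Tspan32, a tetraspanin of blood cells, with 37.

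Sequence was compared with the 5948 genes whose CpG-poor windows had no peak in any library. These include 1074 olfactory and 325 vomeronasal receptor genes, families that held no member, and the part of this make-up was not tested. Exact letters were searched on both strands, and each motif was also searched with its letters in reversed order, which keeps the base composition. Reversal can however create or remove a CG. GATA motifs (AGATAA, with T also allowed as the first and G as the last base) lay within 250 bp of the TSS at 88 of 134 member genes, or 65.7%, and at 64.7% of genes without a peak, so that presence near the TSS did not set members apart. Their place did. In the bases shared by the peaks of all 3 libraries GATA motifs occurred 2.72 times per 1000 bp and the reversed letters 0.352 times. Outside peaks in the same windows the values were 1.91 and 1.61, and in windows without a peak 2.55 and 2.20. The density of GATA motifs in shared peaks was thus near that of windows without a peak, whereas the reversed letters were rarer. In CG-richer open windows, GATA motifs occurred 0.482 times per 1000 bp of shared peak.

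The E-box with GATA differed more between shared peaks and other bases. In it CTG stands a fixed gap before a GATA motif ending in A, the arrangement known for joint binding of TAL1 and GATA1. It lay within 250 bp of the TSS at 13 of 134 member genes, or 9.70%, and at 67 of 5948 genes without a peak, or 1.13%, and its reversed letters at 0 and 20. It occurred 10 times in 19874 bp of shared peak, or 0.503 per 1000 bp, 2 times in 208708 bp outside peaks, and at 0.0202 per 1000 bp in windows without a peak. Every such match is also a GATA match. Among the red cell members 6 of 12 had it somewhere in the window (Nfe2 with a pair, Ermap, Tspo2, Epb42, Add2 and Kel), and among the other members 14 of 122. At Nfe2 both matches lie 332 to 370 bp upstream, where replicates 2 and 3 had their strongest peak and replicate 1 had none.

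The 10 matches within shared peaks are shown because this motif combines sites of known red cell factors and was more frequent in open than in closed CpG-poor windows, although most open windows lack it. They were chosen after the values were seen. Each line gives 27 bases of mm10 on the strand that reads CTG first, with the CTG and the GATA motif in capitals.
6030468B19Rik chr11:117797647-117797673 (- strand): gctgcCTGcagctaggAGATAActtga
Ermap chr4:119190041-119190067 (+ strand): cctgtCTGcccaccccTGATAAagcga
Cyb5r3 chr15:83170554-83170580 (+ strand): agggcCTGcatagcccAGATAAgacat
Tspo2 chr17:48450827-48450853 (- strand): ccagtCTGctctaaagAGATAAgattg
St7 chr6:17743508-17743534 (+ strand): agtttCTGctgagttgAGATAAgcagt
Tmem86b chr7:4630396-4630422 (+ strand): cttgtCTGgcacttgcTGATAAggtac
Add2 chr6:86077980-86078006 (- strand): cctgtCTGccatgttcAGATAAaggca
Cryba4 chr5:112253291-112253317 (+ strand): tgctaCTGggtgacccAGATAAagagc
Tnfrsf14 chr4:154928613-154928639 (- strand): atagcCTGctcaaagaTGATAAgaaac
Ackr1 chr1:173333457-173333483 (+ strand): agcagCTGtggctccaAGATAAgtgcc

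The match lies across the TSS of 6030468B19Rik, a RIKEN gene with signals of 1.94, 8.46 and 11.2. It lies 35 to 51 bp upstream in Ermap, 63 to 79 bp upstream in St7, 56 to 72 bp upstream in Add2 and 382 to 398 bp upstream in Cyb5r3. In Ermap and Cyb5r3 it coincides with a footprint that all 3 libraries listed. The gap between CTG and the GATA motif differs in sequence from gene to gene. At Tmem86b and Ackr1 the match is downstream of the TSS, and at Tspo2, Cryba4 and Tnfrsf14 it is over 500 bp upstream.

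Motifs of more general promoter factors differed in another way. KLF motifs (CCNCNCCC) occurred 3.47 times per 1000 bp of shared peak, 1.93 times outside peaks and 1.02 times in windows without a peak, but the reversed letters gave 2.52, 1.86 and 0.952. SP1 motifs (GGGCGG) occurred 1.31, 0.139 and 0.0856 times, and reversed 1.26, 0.134 and 0.0806. The GC content of shared peaks was 54.8% and that of the rest of the member windows 45.2%, and for these GC-rich motifs the reversed letters moved in parallel. A run of G or C can match both a motif and its reversed letters, as GGGCGGG does for SP1. For KLF and SP1 the reversed letters are therefore a poor control. E-boxes (CAGATG or CAGCTG) occurred 2.31 times per 1000 bp of shared peak and 1.26 times outside, with reversed values of 0.252 and 0.417. The reversed form of CAGCTG holds a CG, and the windows were selected for few CG. The reversed E-box values are therefore low in part by the rule and are a poor control. CCAAT occurred 2.11 and 1.38 times, with reversed values of 1.06 and 1.25.

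The CTCF motif, of the factor that anchors chromatin loops, was rare but also denser in shared peaks, with 5 matches there (0.252 per 1000 bp), 0.0144 per 1000 bp outside peaks and 0.00513 in windows without a peak.

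TATA boxes were rare at these promoters. TATAAA or TATATA started 35 to 22 bp upstream of the TSS at 3 member genes, or 2.24%, against 396 of 5948 genes without a peak, or 6.66%, and 1.07% of CG-richer open genes. The 3 genes were Hemgn, Car1 and Tph2, a neuronal tryptophan hydroxylase with signals of 1.47, 1.08 and 0.602. Within shared peaks TATA motifs occurred 0.302 times per 1000 bp, against 2.14 times in windows without a peak. Members also had more CG (median 21 against 12) and a higher GC content (median 47.0% against 41.6%) than windows without a peak, and these values move with the motif counts. Their part in the result was not tested.

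**Figure D5:**
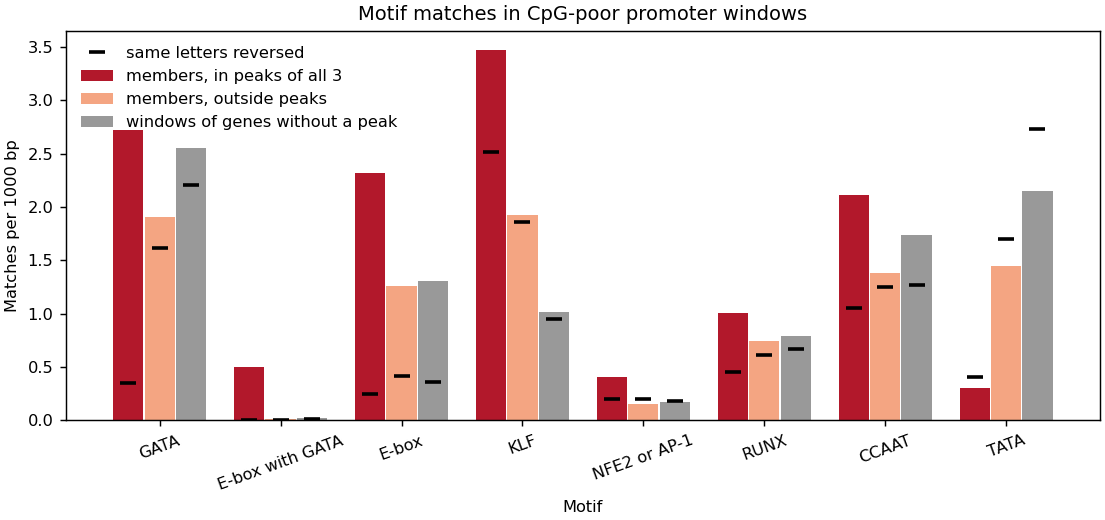
Matches per 1000 bp of 8 motifs in the bases shared by the peaks of all 3 libraries at member genes, in the rest of the member windows outside peaks, and in CpG-poor windows of genes without a peak. Black bars give the same letters in reversed order. GATA and the E-box with GATA stand well above their reversed letters in shared peaks (2.72 against 0.352, and 0.503 against 0), KLF less so (3.47 against 2.52), and TATA is lowest there.

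Many members were alternative starts of genes that also have a CG-richer promoter. Of 134 member genes 51 (38.1%) had a start with more than 25 CG over 2000 bp away, against 1280 of 5948 genes without a peak (21.5%). The part of the receptor families among the genes without a peak was not tested. At 34 members that start was upstream, so that the CpG-poor start lies inside the gene. The CG-richer start had a peak in all 3 libraries at 37 of the 51 genes and in none at 6. Among the genes without a peak at the CpG-poor start, it had a peak in all 3 libraries at 794 of 1280. Over all isolated windows with more CG the share was 61.1%, and nothing is read from the difference. The member window had the higher mean percentile at 21 of the 51, and at 20 when a peak had to overlap a window by at least 50 bp, Nfe2 being the gene lost. The selection rule favours the member window in this count, since only that window had to have a peak in all 3 libraries. The 21 include all 6 genes whose CG-richer start had no peak. Of the 37 genes with both starts open in all 3 libraries, the member was higher at Acp5, Psd4, St7, Cyp1a1, Lmo2, Tmcc2 and Nfe2. The CG-richer start was higher at the rest of the 37.

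At Nfe2 the order of the starts rested on the 16-bp edge in replicate 1. The CpG-poor start had a mean percentile of 76.3 and the CG-richer start, 3974 bp upstream with 40 CG, 64.3, but with an overlap of at least 50 bp the values were 53.9 and 64.4. At Add2 the values were 67.3 and 13.9, the upstream start having a peak in replicate 2 only. At Tmcc2 both starts were close, at 76.4 and 74.2. At Lmo2 the CpG-poor upstream start stood at 73.6 and the CG-richer downstream start at 64.8. Acp5, the tartrate-resistant acid phosphatase of macrophages and osteoclasts, had 68.9 at the CpG-poor start and 55.3 at the CG-richer one. Cyb5r3 was the reverse, with 72.2 at the CpG-poor start and 91.9 at the CG-richer one 2415 bp upstream. At Hk1, the hexokinase with an erythroid transcript, the CpG-poor start had 66.7 and the CG-richer start 2180 bp downstream 94.2. At Mafg, the small partner of NFE2, the values were 66.7 and 84.8.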

How the data were processed

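DNase-seq of 3 libraries of 1 group was analysed, so that values are given per library or as mean ± SD over 3 libraries and no test between groups was possible. The members, gene lists and motifs were chosen with earlier results of these data known. Positions are in mm10, per the labels. The signal is the value that the authors deposited per peak, scaled per library. Per the deposited text listing, the peaks of a library came from its own alignments, and the longer of 2 deposited lists was used. The deposited false discovery rate files hold q-values of at most 0.05 per interval. In the footprint files the authors put 0.01 in every row where a p-value could stand, so footprints carried no score. Peak caller, settings and read depth were not given in the sources used here. Depth is represented by the number of listed peaks.

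Windows were built with Python 3.11.15, numpy 2.4.6 and pandas 2.3.3 from GENCODE protein-coding transcripts on chromosomes 1 to 19, X and Y, with TSSs of every gene type counted as neighbours. Overlap of 1 bp counted as a peak. Letters were matched exactly. Footprints were shared when intervals of all 3 libraries met, and a motif counted when it lay within 5 bp of the footprint's edges. Named genes were the 15 members with the best and the 5 with the worst poorest rank, all members on blood, liver or endothelial lists, the 5 with fewest CG, the 3 whose rank differed most, the 3 with most footprints and listed genes with a TATA box. Some members of these are not reported here. Other genes were named after their values were seen. Overlap and motif search were tested on simulated data. Alternatives were the stricter list, other CG limits, a 500-bp window, no neighbour rule, a 50-bp overlap, equal peak numbers, no copied windows and each library left out.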

Additional observations from a re-analysis of the deposited data

How the results depend on the processing

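The share of isolated CpG-poor windows with a peak in all libraries, 1.82%, moved with the settings that change which windows or peaks enter. It was 0.876% with the stricter peak list, 1.08% with at most 20 CG, 2.81% with at most 30 CG, 0.928% with 500 bp on either side and 1.40% with equal numbers of strongest peaks. Leaving out 1 library at a time gave 1.85% to 5.23%, the highest without replicate 1. The mean of the median percentiles, 56.4, was 60.9 with the stricter list, 62.4 with 500 bp on either side and 59.9 with equal numbers of peaks, and 50.9 to 56.4 with 1 library left out. A GATA motif lay near the TSS in 66.1% of windows, in 56.8% with at most 30 CG and in 76.1% with 500 bp on either side. With an overlap of at least 50 bp, an alternative added after the values were seen, the CpG-poor start of Nfe2 lay -10.5 percentile points from its CG-richer start, where it had been 12.0 points above it. The other 54 values, which include those for a peak over the TSS, TATA and footprints, moved by less than the spread. No paired analysis was possible because the 3 libraries form 1 group. The number of peaks per library, from 34369 to 122281, limits what a missing peak shows.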
